A study of Mus musculus with 8 samples.

Results

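The genes described here are 33 enzymes and regulators of cholesterol and fatty acid synthesis, chosen by gene symbol as members of the mevalonate and sterol pathway, of the SREBP regulators and of lipogenesis. All 33 were among the 24346 genes listed in each of 8 RNA-seq libraries of sorted stromal cells from mouse large intestine, and all 33 were among the 11506 genes tested. The cells were live, podoplanin-positive and free of CD45, CD31 and EpCAM staining, and came from 4 mice a group, all aged 12 weeks, with 4 libraries a group. The 4 cKO mice had the genotype Pdgfra cre; Il10ra flox/flox, and the 4 mice labelled WT had the genotype Il10ra flox/flox without Cre. Floxed Il10ra alleles are thus shared by all 8 mice, and Cre follows Pdgfra, which fibroblasts of the gut express. Values are FPKM, fragments scaled to transcript length and library size.

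Cells build cholesterol from acetyl-CoA through mevalonate, isoprenoids, squalene and lanosterol, and the isoprenoids also serve protein prenylation, dolichol and coenzyme Q. When sterols in the endoplasmic reticulum run low, the escort protein SCAP carries the membrane-bound transcription factor SREBP to the Golgi, where proteases release its active part. INSIG proteins hold SCAP back when sterols are plentiful. SREBP2, made from Srebf2, mainly drives genes of cholesterol synthesis, and SREBP1, made from Srebf1, mainly drives genes of fatty acid synthesis.

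None of the 33 genes passed the limma test for a difference between cKO and WT stromal cells (0 of 33 at an adjusted p under 0.05, against 0.00869% of all genes tested). None had an unadjusted p under 0.05 either, where 5.41% of all genes tested did, and for none were the groups free of overlap (1.36% of all genes were higher and 1.9% lower in cKO without overlap). The log2(FPKM + 1) difference was positive (higher in cKO) for 28 of the 33, with a median of 0.12, against 47.4% of all genes and a median of -0.0065 over all genes. With rescaling of every library to a fixed sum, 31 of the 33 were positive, but the median of all genes also rose, to 0.025. Differences are cKO minus WT on the log2(FPKM + 1) scale. The largest of the 33 was that of the farnesyl diphosphate synthase gene Fdps, at 0.34 (SE 0.33, 95% interval -0.38 to 1.07, limma adjusted p = 0.934), and the smallest adjusted p was that of the squalene synthase gene Fdft1 (limma adjusted p = 0.897). The median moved with single libraries: leaving out cKO replicate 1 gave 0.077, leaving out cKO replicate 2 gave 0.19 and leaving out WT replicate 4 gave 0.20. A p that misses the threshold does not show that the groups were alike, and the 95% intervals below give the sizes not excluded at this n. In these bulk samples fewer cells of a type and less RNA per cell cannot be told apart.

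**Figure D1:**
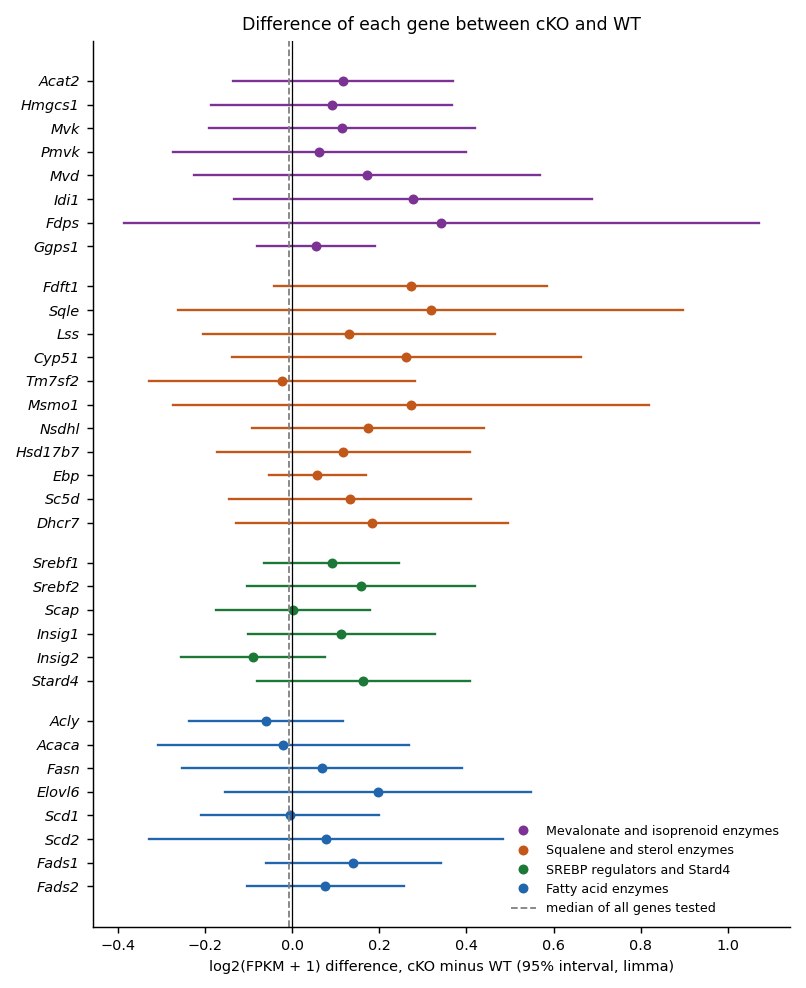
Difference of each of the 33 genes between cKO and WT (x axis, log2(FPKM + 1), cKO minus WT), by role; points are the limma estimates from 4 cKO and 4 WT libraries, bars are 95% intervals, and the dashed line is the median of all 11506 genes tested. Every interval includes 0, and the Fdps interval is the widest.

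Within each group these genes varied from library to library, and most of them in the same order. Their median residual SD was 0.205 on the log2(FPKM + 1) scale, against 0.128 for all genes tested. Among the 19 mevalonate and sterol enzymes, cKO replicate 2 was the lowest cKO library for 15 and WT replicate 4 the highest WT library for 17. Over all genes tested these shares were 24.4% and 26.2%. Both held together for 21 of the 33 genes and 7.91% of all genes. For 17 of the 33, cKO replicates 1, 3 and 4 and WT replicate 4 were the 4 highest libraries, an order that 2.21% of all genes had. These libraries were singled out after the values were seen, so that the counts are a description and carry no test.

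The size of this spread is seen in the library medians. Relative to each gene's mean over the 8 libraries, the median log2 deviation of the 19 mevalonate and sterol enzymes was 0.29, -0.21, 0.073 and 0.27 in cKO replicates 1 to 4, against -0.17, -0.12, -0.23 and 0.17 in WT replicates 1 to 4. The cKO libraries thus held both the highest median and one close to the lowest, and WT replicate 4 lay among the high cKO libraries. Over all genes tested the 8 library medians spanned 0.0201, against 0.517 for these enzymes, but a median of so many genes moves little. Medians of the related lists described below, of 11 to 20 genes, spanned from 0.0885 (SREBP processing and sterol sensing) to 0.177 (fatty acid oxidation). The highest library was at least 2 times the lowest for 7 of the 33 genes (Mvd, Fdps, Sqle, Lss, Cyp51, Msmo1 and Elovl6), and for 12.5% of all genes. Epithelial transcripts, from cells that the sort was to remove, also differed between libraries. All 18 epithelial markers were above 0 in every library, with summed levels of 1150.2, 579, 151 and 54.7 FPKM in cKO replicates 1 to 4, against 70.2 to 148 FPKM in WT. The highest sums were in cKO replicates 1 and 2 and the lowest was in cKO replicate 4. With the epithelial list mean as a covariate the median difference of the 33 genes was 0.12, and none passed in limma. The part of epithelial transcripts in the order of the libraries was not tested.

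**Figure D2:**
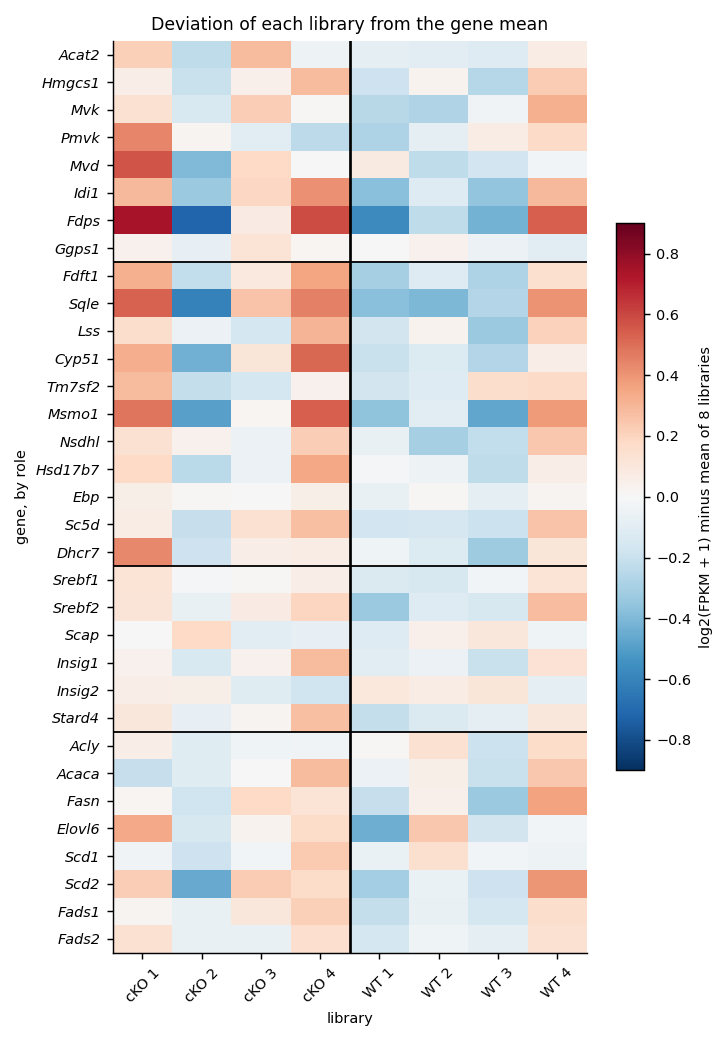
Deviation of each library (columns, cKO left of the line and WT right) from the mean of the 8 libraries for the 33 genes (rows, by role), in log2(FPKM + 1). Columns of cKO replicate 1, cKO replicate 4 and WT replicate 4 are mostly red (above the mean), and those of cKO replicate 2, WT replicate 1 and WT replicate 3 are mostly blue (below it).

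Promoters are shown for 5 genes whose values varied together across the libraries, 4 enzymes and the feedback gene Insig1. RefSeq promoter windows (GRCm38.p6, 250 bases before to 50 after the annotated start) were found for 26 of the 33 genes. The other 7 are Fdps, Fdft1, Sqle, Stard4, Scd1, Scd2 and Fads1. The windows below are chr13:119690101-119690400 for Hmgcs1 and chr13:8885356-8885655 for Idi1 (plus strand), chr8:64733529-64733828 for Msmo1 and chr5:4104648-4104947 for Cyp51 (minus strand), and chr5:28071162-28071461 for Insig1 (plus strand). Each is written 5′ to 3′ on the gene's strand. Capitals mark CCAAT, its reverse complement ATTGG and, in Hmgcs1, the sterol regulatory element letters searched (TCACNCCAC).
Hmgcs1: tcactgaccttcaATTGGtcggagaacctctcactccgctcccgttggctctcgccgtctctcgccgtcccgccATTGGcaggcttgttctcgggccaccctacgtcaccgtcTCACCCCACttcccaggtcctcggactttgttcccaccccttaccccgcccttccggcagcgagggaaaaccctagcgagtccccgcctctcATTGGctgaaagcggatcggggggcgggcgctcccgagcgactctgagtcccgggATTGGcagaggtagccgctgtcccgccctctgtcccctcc
Idi1: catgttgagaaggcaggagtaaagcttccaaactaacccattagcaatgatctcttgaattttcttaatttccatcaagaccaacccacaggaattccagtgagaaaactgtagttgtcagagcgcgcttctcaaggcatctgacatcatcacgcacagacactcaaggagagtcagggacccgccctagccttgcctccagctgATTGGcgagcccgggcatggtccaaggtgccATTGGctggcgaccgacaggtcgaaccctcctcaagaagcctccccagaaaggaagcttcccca
Msmo1: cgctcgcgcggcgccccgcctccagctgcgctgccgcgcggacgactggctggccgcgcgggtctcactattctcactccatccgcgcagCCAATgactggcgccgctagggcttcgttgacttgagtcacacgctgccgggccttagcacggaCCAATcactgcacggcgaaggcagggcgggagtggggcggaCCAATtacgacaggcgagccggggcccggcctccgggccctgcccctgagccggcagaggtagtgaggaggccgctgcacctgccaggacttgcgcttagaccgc
Cyp51: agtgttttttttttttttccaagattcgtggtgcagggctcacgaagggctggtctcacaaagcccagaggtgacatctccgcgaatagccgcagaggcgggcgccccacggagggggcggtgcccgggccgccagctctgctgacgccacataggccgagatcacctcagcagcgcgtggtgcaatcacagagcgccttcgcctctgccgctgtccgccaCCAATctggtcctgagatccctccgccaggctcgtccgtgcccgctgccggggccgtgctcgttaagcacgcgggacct
Insig1: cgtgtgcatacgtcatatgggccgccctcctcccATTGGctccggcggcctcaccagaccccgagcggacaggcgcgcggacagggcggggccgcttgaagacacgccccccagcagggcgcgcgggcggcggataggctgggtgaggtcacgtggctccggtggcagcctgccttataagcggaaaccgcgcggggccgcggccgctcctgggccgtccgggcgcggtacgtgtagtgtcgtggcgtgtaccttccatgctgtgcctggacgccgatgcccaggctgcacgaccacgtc
The CCAAT box, bound by the factor NF-Y, which is known to act beside SREBP at such promoters, was found on either strand in the windows of 21 of the 26 genes and of 15 of the 16 mevalonate and sterol enzymes among them, against 42.7% of the 8754 tested genes with a window. The GC box GGGCGG was found for 21 of the 26, against 70.1% of tested genes. The letters TCACNCCAC occurred in 1 of the 26, Hmgcs1, against 1.39%. Over all 32851 windows of this length the shares were 37.4% for CCAAT, 35.7% for GGGCGG and 1.24% for TCACNCCAC. Matches of different motifs may overlap, and a match describes letters and not a binding site. Only these letters within these windows were searched, so the lack of a match does not show that a gene has no such element.

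The mevalonate arm showed the widest spread at Fdps and the narrowest at Ggps1. Hmgcs1 (GRCm38 chromosome 13, 119690379 to 119708260, plus strand), which makes HMG-CoA and was the most abundant of these 8 genes, had 35.7, 29.6, 35.2 and 41.8 FPKM in cKO replicates 1 to 4, against 29.9, 34.9, 28.5 and 40.2 FPKM in WT replicates 1 to 4. The highest value was in cKO replicate 4 and the next in WT replicate 4, so the groups overlapped, and the log2 difference was 0.091 (SE 0.12, 95% interval -0.19 to 0.37, limma adjusted p = 0.966). Idi1, the isomerase that supplies both building blocks of isoprenoids, had 22.3, 14.1, 20.6 and 24.3 FPKM in cKO replicates 1 to 4, against 13.7, 16.5, 13.9 and 22.3 FPKM in WT replicates 1 to 4. Its cKO replicate 2 lay with WT replicates 1 to 3, and the difference was 0.28 (SE 0.18, 95% interval -0.13 to 0.69, limma adjusted p = 0.920).

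Fdps (GRCm38 chromosome 3, 89093588 to 89101959, minus strand), which makes farnesyl diphosphate, the branch point to sterols and prenylated proteins, had 53.2, 18.8, 33.2 and 47.8 FPKM in cKO replicates 1 to 4, against 20.8, 26.8, 23.2 and 46.2 FPKM in WT replicates 1 to 4. Values of both groups thus lay at both ends, and the highest library was 2.83 times the lowest. Ggps1, which turns farnesyl into geranylgeranyl diphosphate outside the sterol branch, had 19.4, 17.9, 20.5 and 19.1 FPKM in cKO replicates 1 to 4, against 18.8, 19.4, 18.1 and 17.4 FPKM in WT replicates 1 to 4, with a highest library 1.18 times the lowest. The Ggps1 value is uncertain, since 257 of its exonic bases overlap Arid4b, at a mean of 7.16 FPKM, on the other strand. Use of strand in counting is not given in the sources used here. The ratio of Fdps to Ggps1 was 2.75, 1.05, 1.62 and 2.51 in cKO replicates 1 to 4, against 1.11, 1.38, 1.28 and 2.65 in WT replicates 1 to 4. It was above 2 in cKO replicates 1 and 4 and in WT replicate 4. Fdps, Sqle, Cyp51, Msmo1 and Mvd are given in full because of their spread, which was seen first.

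The kinases and the decarboxylase of the arm were lower in level. Mvd, the mevalonate diphosphate decarboxylase gene, had 7.25, 3.25, 5.31 and 4.58 FPKM in cKO replicates 1 to 4, against 4.91, 3.77, 3.95 and 4.49 FPKM in WT replicates 1 to 4. Both the lowest and the highest of its 8 values were cKO libraries (replicates 2 and 1). Mvk, the mevalonate kinase gene, averaged 8.19 ± 0.982 FPKM in cKO and 7.57 ± 1.73 FPKM in WT (SD, n = 4 each), with a difference of 0.11 (95% interval -0.19 to 0.42). Pmvk, the phosphomevalonate kinase gene, averaged 6.05 ± 1.503 FPKM in cKO and 5.69 ± 0.888 FPKM in WT (SD, n = 4 each), and its difference of 0.063 (95% interval -0.27 to 0.40) turned to -0.073 without cKO replicate 1. Acat2, the acetoacetyl-CoA thiolase gene at the head of the pathway, averaged 8.62 ± 1.55 FPKM in cKO and 7.80 ± 0.516 FPKM in WT (SD, n = 4 each). Its value is uncertain because 97.7% of 1477 aligned transcript bases match Acat3 and 445 bases match Tcp1 at 98.7%. Idi1, Ggps1, Fdft1, Acaca and Elovl6 also have near-identical pseudogene transcripts, which could have taken or given fragments.

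Of the 11 enzymes from squalene onwards, 10 had a higher cKO mean and none passed the test. Squalene epoxidase (Sqle, GRCm38 chromosome 15, 59315077 to 59331192, plus strand), a rate-limiting step of the sterol branch, had 18.3, 7.79, 14.98 and 17.3 FPKM in cKO replicates 1 to 4, against 9.30, 9.11, 10.2 and 16.7 FPKM in WT replicates 1 to 4. Values formed a lower set of cKO replicate 2 and WT replicates 1 to 3 and a higher set of the 4 other libraries, and the difference between groups was 0.32 (SE 0.26, 95% interval -0.26 to 0.90, limma adjusted p = 0.929). With 1 library left out the difference ran from 0.19 to 0.57, and was highest without cKO replicate 2 (limma adjusted p = 0.836).

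Lanosterol demethylase (Cyp51) had 12.9, 7.20, 10.9 and 14.9 FPKM in cKO replicates 1 to 4, against 8.62, 9.17, 8.22 and 10.5 FPKM in WT replicates 1 to 4. cKO replicate 2 held the lowest of all 8 values and cKO replicate 4 the highest, and the difference was 0.26 (95% interval -0.14 to 0.66). With 1 library left out this difference ran from 0.13 to 0.45, and was highest without cKO replicate 2 (limma adjusted p = 0.836). Msmo1, the methylsterol monooxygenase gene of the next steps, had 27.4, 13.5, 19.7 and 28.6 FPKM in cKO replicates 1 to 4, against 14.9, 17.96, 13.8 and 25.6 FPKM in WT replicates 1 to 4. Its 3 highest libraries were cKO replicates 4 and 1 and WT replicate 4. Fdft1, which joins farnesyl units into squalene, had 19.01, 12.7, 15.99 and 19.5 FPKM in cKO replicates 1 to 4, against 12.03, 13.8, 12.2 and 16.7 FPKM in WT replicates 1 to 4, with a difference of 0.27 (SE 0.14, 95% interval -0.042 to 0.59, limma adjusted p = 0.897). The Fdft1 value is uncertain, since 774 of its annotated exonic bases overlap Ctsb, a far more abundant gene on the other strand, and use of strand is not given in the sources used here. Its transcript also matches the pseudogene Gm6781 over 1249 bases at 97.4%. Overlaps on the other strand leave the same doubt for Cyp51 (166 bases of Akap9) and Srebf1 (109 bases of Rai1), and for Hmgcs1, Idi1, Lss, Scap and Elovl6 with less well described transcripts. Exons of Fdps (with Gm43738), Tm7sf2 (Vps51), Scd2 (Mir5114) and Srebf1 (Mir6922) overlap a gene on their own strand. Use of strand would not separate these, so their values are uncertain too.

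Of the later enzymes, Ebp varied least and Sc5d was the most abundant of the 11. Sc5d, the sterol C5 desaturase gene, had 30.7, 25.3, 32.4 and 35.5 FPKM in cKO replicates 1 to 4, against 25.9, 26.2, 25.5 and 35.3 FPKM in WT replicates 1 to 4. cKO replicate 4 and WT replicate 4 were its highest libraries, and cKO replicate 2 was the lowest. The difference was 0.13 (SE 0.12, 95% interval -0.14 to 0.41, limma adjusted p = 0.934). Ebp, the sterol isomerase gene, was the steadiest of the 33, averaging 25.9 ± 0.543 FPKM in cKO and 24.9 ± 0.975 FPKM in WT (SD, n = 4 each), with a highest library 1.11 times the lowest and a difference of 0.058 (95% interval -0.054 to 0.17). Dhcr7, which reduces 7-dehydrocholesterol to cholesterol, averaged 4.20 ± 0.940 FPKM in cKO and 3.55 ± 0.555 FPKM in WT (SD, n = 4 each). Nsdhl, a sterol dehydrogenase gene on chromosome X, averaged 8.13 ± 0.748 FPKM in cKO and 7.16 ± 1.42 FPKM in WT (SD, n = 4 each).

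Hsd17b7, the 3-ketosteroid reductase gene, averaged 4.92 ± 1.06 FPKM in cKO and 4.41 ± 0.448 FPKM in WT (SD, n = 4 each). Lss, which closes the ring of lanosterol, averaged 2.02 ± 0.435 FPKM in cKO and 1.76 ± 0.454 FPKM in WT (SD, n = 4 each) and was the lowest of the 33. The single sterol enzyme with a lower cKO mean was Tm7sf2, a sterol reductase gene, at 2.80 ± 0.617 FPKM in cKO and 2.85 ± 0.478 FPKM in WT (SD, n = 4 each), and its difference of -0.023 (95% interval -0.33 to 0.28) was 0.0028 with rescaling to a fixed sum.

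**Figure D3:**
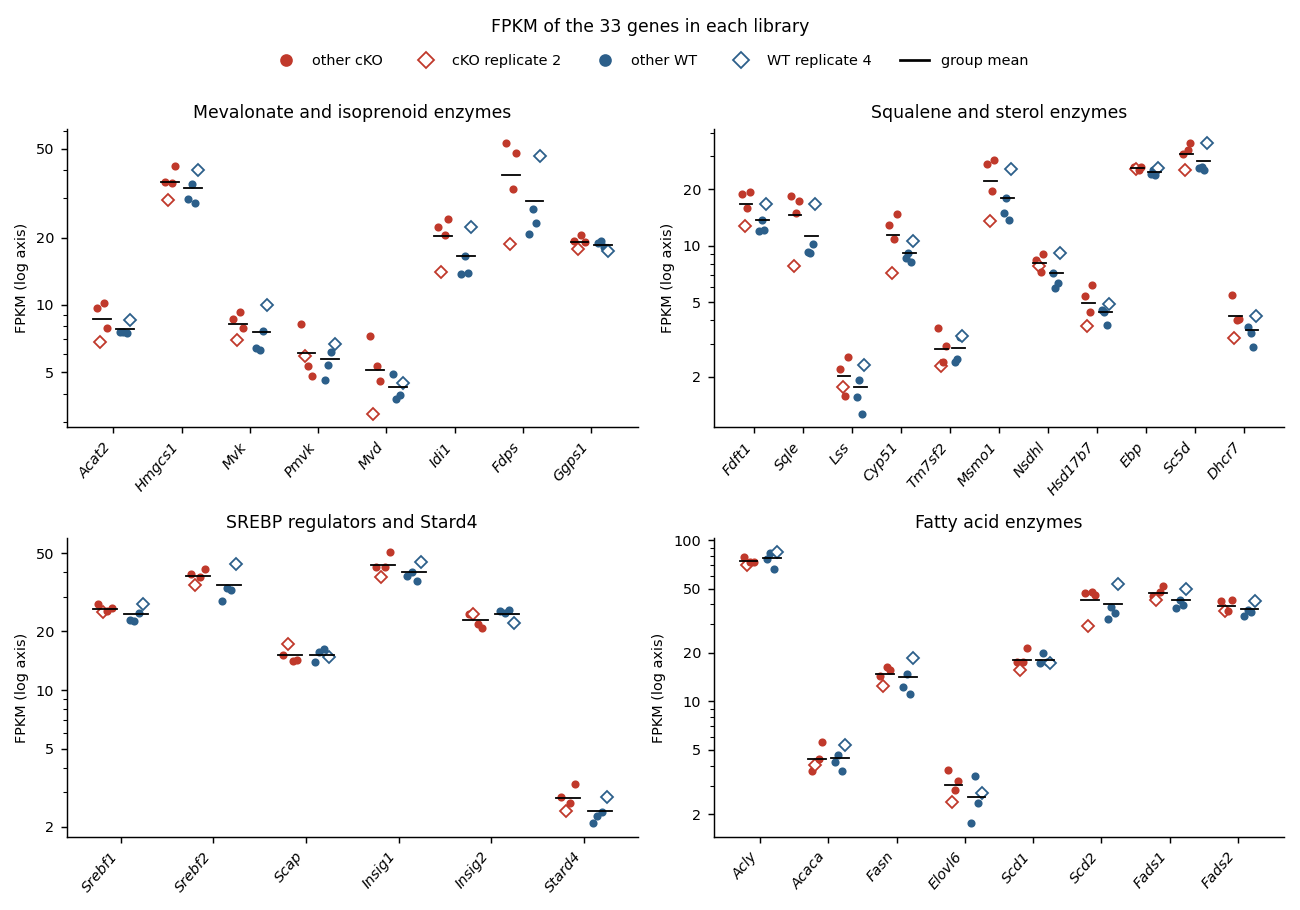
FPKM of the 33 genes (log axis) in each library, cKO left and WT right for each gene, with the group mean as a line; open diamonds are cKO replicate 2 and WT replicate 4. For Sqle, Fdps, Idi1, Msmo1 and Scd2, the open diamond lies below the other cKO points and above the other WT points.

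Among the 6 regulators, Srebf1, Srebf2, Insig1 and Stard4 had cKO replicates 1, 3 and 4 and WT replicate 4 as their 4 highest libraries, and Scap and Insig2 did not. Srebf2 (GRCm38 chromosome 15, 82147181 to 82205379, plus strand) had 39.3, 34.5, 38.1 and 41.6 FPKM in cKO replicates 1 to 4, against 28.5, 33.4, 32.6 and 44.01 FPKM in WT replicates 1 to 4. WT replicate 4 was its highest library and WT replicate 1 its lowest, and the group difference was 0.16 (SE 0.12, 95% interval -0.10 to 0.42, limma adjusted p = 0.929). With 1 library left out the difference ran from 0.073 to 0.28, and was highest without WT replicate 4 (limma adjusted p = 0.776). Srebf1 had 27.5, 25.03, 25.4 and 26.2 FPKM in cKO replicates 1 to 4, against 22.9, 22.7, 24.7 and 27.5 FPKM in WT replicates 1 to 4, with a highest library 1.21 times the lowest. The deposited values do not separate the 1a and 1c transcripts of Srebf1.

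Insig1, itself a target of SREBP and thereby part of its feedback, had 42.6, 37.7, 42.6 and 50.9 FPKM in cKO replicates 1 to 4, against 38.5, 40.03, 36.003 and 45.5 FPKM in WT replicates 1 to 4. cKO replicate 4 and WT replicate 4 were the highest, and the difference was 0.11 (SE 0.096, 95% interval -0.10 to 0.33, limma adjusted p = 0.931). Insig2, the paralog that is not driven by SREBP in the same way, had 24.6, 24.5, 21.8 and 20.7 FPKM in cKO replicates 1 to 4, against 25.3, 24.7, 25.6 and 22.1 FPKM in WT replicates 1 to 4. Its lowest 3 libraries, cKO replicates 4 and 3 and WT replicate 4, were among the highest 4 for Insig1, and its difference was -0.090 (SE 0.074, 95% interval -0.25 to 0.074, limma adjusted p = 0.929). The ratio of Insig1 to Insig2 ran from 1.54 in cKO replicate 2 to 2.46 in cKO replicate 4 among the cKO libraries, and from 1.41 in WT replicate 3 to 2.06 in WT replicate 4 among the WT libraries.

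Scap, the escort of SREBP, averaged 15.2 ± 1.48 FPKM in cKO and 15.1 ± 1.07 FPKM in WT (SD, n = 4 each), with a difference of 0.00099 (95% interval -0.18 to 0.18). cKO replicate 2 was its highest library, which held for no other of the 33 genes among the cKO libraries. Stard4, which carries cholesterol between membranes, had 2.86, 2.41, 2.65 and 3.32 FPKM in cKO replicates 1 to 4, against 2.09, 2.27, 2.39 and 2.86 FPKM in WT replicates 1 to 4. Its 4 highest libraries were the same as those of Hmgcs1, and the difference was 0.16 (SE 0.11, 95% interval -0.082 to 0.41, limma adjusted p = 0.922).

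The 8 fatty acid genes had the smallest median difference of the 4 roles, 0.072, with a positive log2(FPKM + 1) difference for 5 of the 8. Acly, the most abundant of the 33 genes, which makes cytosolic acetyl-CoA from citrate for both pathways, had 78.7, 69.8, 73.2 and 73.7 FPKM in cKO replicates 1 to 4, against 76.1, 82.9, 65.9 and 84.4 FPKM in WT replicates 1 to 4. The groups overlapped throughout, and the difference was -0.061 (SE 0.079, 95% interval -0.24 to 0.12, limma adjusted p = 0.965). Fasn, the fatty acid synthase gene, averaged 14.7 ± 1.67 FPKM in cKO and 14.2 ± 3.32 FPKM in WT (SD, n = 4 each), with 12.5 FPKM in cKO replicate 2 and 18.6 FPKM in WT replicate 4. Acaca, the acetyl-CoA carboxylase gene, averaged 4.42 ± 0.835 FPKM in cKO and 4.48 ± 0.712 FPKM in WT (SD, n = 4 each), and its difference of -0.020 (95% interval -0.31 to 0.27) was 0.0094 with rescaling to a fixed sum. Elovl6, which elongates saturated fatty acids, averaged 3.04 ± 0.574 FPKM in cKO and 2.55 ± 0.698 FPKM in WT (SD, n = 4 each).

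The stearoyl-CoA desaturases, which make monounsaturated fatty acids, differed from each other in their spread. Scd2 had 47.2, 29.2, 47.5 and 45.5 FPKM in cKO replicates 1 to 4, against 32.6, 38.7, 35.4 and 53.6 FPKM in WT replicates 1 to 4. Its low value in cKO replicate 2 and high value in WT replicate 4 matched the sterol enzymes, and the difference was 0.078 (SE 0.18, 95% interval -0.33 to 0.48, limma adjusted p = 0.983). Scd1 had 17.5, 15.6, 17.7 and 21.3 FPKM in cKO replicates 1 to 4, against 17.2, 19.9, 17.6 and 17.3 FPKM in WT replicates 1 to 4. It stayed within 1.37 times across the libraries, against 1.83 times for Scd2, and its difference of -0.0043 (95% interval -0.21 to 0.20) was 0.029 with rescaling to a fixed sum. Their transcripts match over 623 bases at 95.5%, so some fragments may be shared. The ratio of Scd2 to Scd1 averaged 2.35 ± 0.414 in cKO and 2.24 ± 0.573 in WT (SD, n = 4 each).

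Fads1, the delta-5 desaturase gene of polyunsaturated fatty acids, had 45.2, 42.4, 47.9 and 51.8 FPKM in cKO replicates 1 to 4, against 38.2, 42.4, 39.6 and 49.7 FPKM in WT replicates 1 to 4. The 4 highest libraries were again cKO replicates 1, 3 and 4 and WT replicate 4, and the difference was 0.14 (SE 0.089, 95% interval -0.060 to 0.34, limma adjusted p = 0.920). Fads2, the neighbouring delta-6 desaturase gene on chromosome 19, averaged 39.3 ± 3.38 FPKM in cKO and 37.2 ± 3.43 FPKM in WT (SD, n = 4 each).

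Genes around the pathway were counted for the same order. Of 11 tested genes of SREBP processing and sterol sensing, 1 had cKO replicate 2 lowest among cKO and WT replicate 4 highest among WT, and of 15 genes that use isoprenoids, 18 of sterol uptake, transport, efflux and storage and 16 of fatty acid oxidation it was 0 each. Of 20 tested genes of fatty acid elongation, activation and glycerolipid synthesis it was 8, against 21 of the 33 and 7.91% of all genes. Of the SREBP processing list, the site-1 protease gene Mbtps1, which cuts SREBP in the Golgi, averaged 68.9 ± 4.49 FPKM in cKO and 71.6 ± 1.78 FPKM in WT (SD, n = 4 each). Mylip, a ligase gene whose product marks lipoprotein receptors for degradation, averaged 13.2 ± 0.706 FPKM in cKO and 13.9 ± 0.727 FPKM in WT, with a difference of -0.069 (95% interval -0.21 to 0.071). Erlin2, a partner of INSIG in the endoplasmic reticulum, averaged 21.9 ± 0.357 FPKM in cKO and 22.6 ± 1.29 FPKM in WT. The median of this list was below that of all genes, and its most abundant gene was Vcp, an ATPase that extracts proteins from the endoplasmic reticulum, at 156 ± 3.76 FPKM in cKO and 159 ± 6.68 FPKM in WT.

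None of the tested genes in these 5 lists passed in limma over all genes. At an unadjusted p under 0.05 there were 2 higher (Scarb1 and Agpat2) and 1 lower (Abca1), against 2.37% higher and 3.03% lower of all genes. Scarb1, the receptor for high-density lipoprotein, had 11.3, 8.52, 10.9 and 9.91 FPKM in cKO replicates 1 to 4, against 6.32, 8.26, 8.33 and 8.29 FPKM in WT replicates 1 to 4. All cKO values lay above all WT values, as for 1.36% of all genes, with a difference of 0.34 (SE 0.11, 95% interval 0.10 to 0.58, limma adjusted p = 0.897). Abca1, a pump that exports cholesterol, had 7.56, 11.6, 9.30 and 8.82 FPKM in cKO replicates 1 to 4, against 12.9, 10.8, 11.9 and 10.3 FPKM in WT replicates 1 to 4. Its 4 lowest libraries were cKO replicates 1, 3 and 4 and WT replicate 4, an order that 2.3% of all genes had. That order was not counted over the sterol transport list, so it describes Abca1 alone. The Abca1 difference was -0.29 (SE 0.12, 95% interval -0.55 to -0.024, limma adjusted p = 0.897).

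Median differences of the 5 lists were -0.026 for SREBP processing, 0.026 for sterol transport, 0.048 for isoprenoid use, 0.054 for fatty acid elongation and glycerolipids and 0.017 for fatty acid oxidation, against 0.13 for the 19 mevalonate and sterol enzymes. In sterol transport Apod, a lipid carrier, averaged 32.99 ± 7.37 FPKM in cKO and 25.9 ± 4.18 FPKM in WT (SD, n = 4 each), with a difference of 0.33 (95% interval -0.026 to 0.68). Lrp1, an endocytic receptor and the most abundant of its list, averaged 151 ± 18.95 FPKM in cKO and 151 ± 18.1 FPKM in WT.

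Among users of isoprenoids, Rabggtb, a subunit of the enzyme that prenylates Rab proteins, averaged 17.99 ± 1.49 FPKM in cKO and 15.6 ± 2.15 FPKM in WT (SD, n = 4 each). Icmt, the methyltransferase of prenylated proteins, averaged 18.6 ± 0.501 FPKM in cKO and 17.7 ± 0.615 FPKM in WT. Pdss1, a subunit of the synthase of the coenzyme Q side chain, averaged 3.63 ± 0.845 FPKM in cKO and 3.06 ± 0.339 FPKM in WT. These 3 had the smallest unadjusted p of the list, and Fnta, a farnesyltransferase subunit and the most abundant of it, averaged 46.3 ± 3.42 FPKM in cKO and 46.6 ± 1.78 FPKM in WT. In fatty acid and glycerolipid synthesis Agpat2, an acyltransferase, averaged 12.8 ± 1.13 FPKM in cKO and 11.1 ± 0.985 FPKM in WT, with a difference of 0.19 (SE 0.083, 95% interval 0.0061 to 0.38, limma adjusted p = 0.897). Dgat1, of triglyceride synthesis, averaged 19.1 ± 2.24 FPKM in cKO and 17.2 ± 1.62 FPKM in WT and was at 18.2 FPKM in cKO replicate 2. For the acyl-CoA synthetase gene Acsl3 the averages were 7.58 ± 1.35 FPKM in cKO and 6.55 ± 0.773 FPKM in WT. The enoyl reductase gene Tecr, the most abundant of this list and the last step of fatty acid elongation, averaged 156 ± 4.83 FPKM in cKO and 154 ± 4.92 FPKM in WT.

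For fatty acid oxidation cKO replicate 2 ranked high. It was the highest cKO library for 8 of the 16 tested genes and the lowest for 0, against 24.8% and 24.4% of all genes. Cpt1a, which admits fatty acids to mitochondria and was chosen after its values were seen, had 24.7, 31.5, 24.5 and 21.2 FPKM in cKO replicates 1 to 4, against 26.4, 26.5, 24 and 21.2 FPKM in WT replicates 1 to 4. cKO replicate 2 was the highest of the 8 libraries, and cKO replicate 4 and WT replicate 4 were the lowest. The thiolase gene Acaa2, the most abundant of this list, averaged 134 ± 19.2 FPKM in cKO and 149 ± 4.01 FPKM in WT (SD, n = 4 each). The acyl-CoA dehydrogenase gene for short chains, Acads, averaged 6.72 ± 1.42 FPKM in cKO and 5.28 ± 0.453 FPKM in WT. Acadm, for medium chains, averaged 24.7 ± 1.60 FPKM in cKO and 26.5 ± 1.58 FPKM in WT, and these 3 genes had the smallest unadjusted p of the list.

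**Figure D4:**
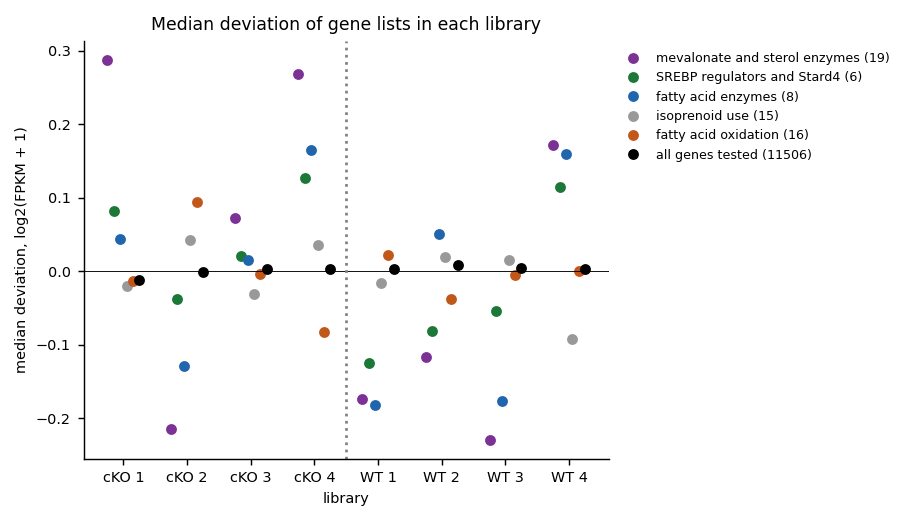
Median deviation of each gene list (coloured points, number of genes in the legend) from its genes' 8-library means in each library, in log2(FPKM + 1), cKO left of the dotted line and WT right. The mevalonate and sterol enzymes ran from -0.23 to 0.29, whereas all genes tested stayed near 0 and fatty acid oxidation was highest in cKO replicate 2, at 0.094.

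**Figure D5:**
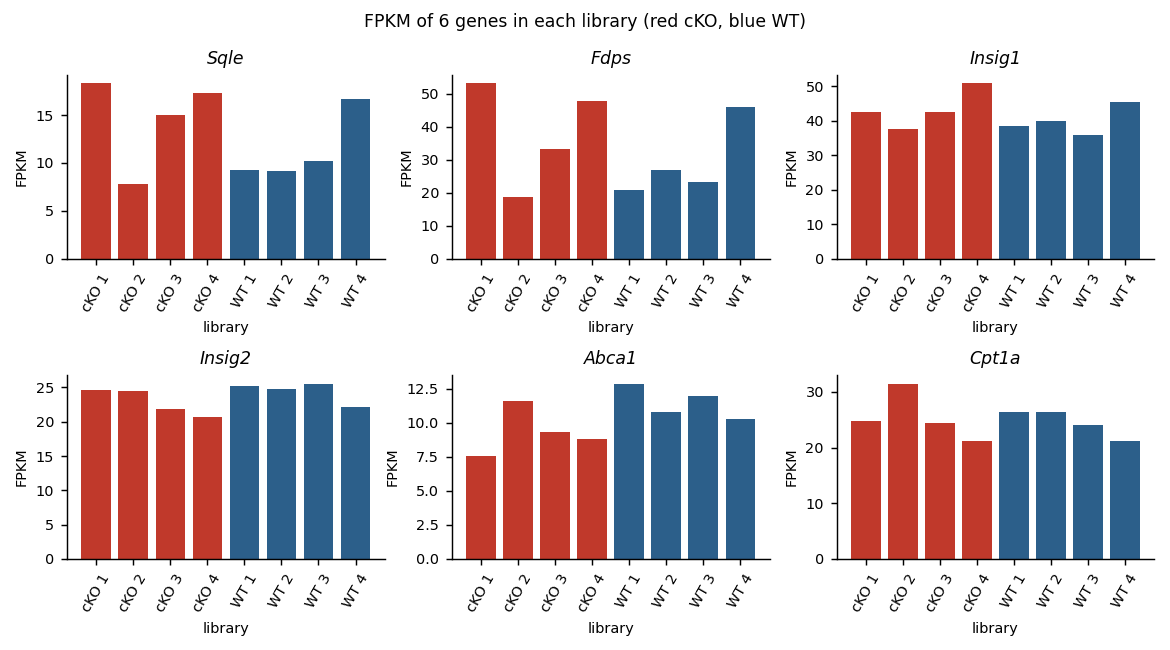
FPKM of Sqle, Fdps, Insig1, Insig2, Abca1 and Cpt1a in each library (cKO in red on the left, WT in blue on the right; each bar is 1 library). Sqle and Fdps were high in cKO replicates 1, 3 and 4 and WT replicate 4, where Abca1 had its 4 lowest values. That order was not counted over the sterol transport list and describes Abca1 alone.

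Relative depth, read from the steps of low values, was highest in cKO replicate 3, at 1.10, and lowest in WT replicate 2, at 0.869, of that of WT replicate 1, which was estimated at 17600000 fragments. With the longest annotated transcript as length, the lowest estimate for any of the 33 genes in any library was 97 fragments. That length overstates the count where shorter transcripts are made, so these are upper estimates. Il10ra had 0.439, 0.273, 0.633 and 0.636 FPKM in cKO replicates 1 to 4, against 0.842, 0.665, 0.614 and 0.403 FPKM in WT replicates 1 to 4. FPKM covers the whole gene and the floxed exons are not named, so these values do not check the genotypes. Fibroblast markers were high in all libraries (8 of 8 markers above 0, summed level 17218 to 21052 FPKM in cKO and 18868 to 19845 FPKM in WT). Pdgfra, the Cre driver, averaged 155 ± 19.03 FPKM in cKO and 158 ± 1.91 FPKM in WT and the partner receptor chain Il10rb 40.4 ± 1.94 FPKM in cKO and 43.5 ± 2.44 FPKM in WT (SD, n = 4 each).

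Transcripts of other cell types were present beside the epithelial ones given above, and their part in the results was not tested. The 12 myeloid markers summed to 83.5 to 173 FPKM in cKO and 75.6 to 106 FPKM in WT.

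The 9 lymphoid and plasma cell markers summed to 38.1 to 176 FPKM in cKO and 50.4 to 89.3 FPKM in WT. The 9 smooth muscle and pericyte markers, with Lmod1 at 0 in 1 library, came to 31.3 to 60.4 FPKM in cKO and 34.6 to 43.8 FPKM in WT. Endothelial markers (9) summed to 4.02 to 11.5 FPKM in cKO and 3.10 to 4.69 FPKM in WT, and glial and mesothelial markers (7, with Sox10 at 0 in 2 libraries) to 2.002 to 7.69 FPKM in cKO and 1.60 to 3.62 FPKM in WT. Of 10 adipocyte markers, a cell type rich in lipid synthesis, Lep was listed at 0 in all libraries and Adipoq, Plin1, Cidec, Retn and Cfd at 0 in at least 1. Their sum ran from 59.5 to 74.9 FPKM in cKO and from 59.9 to 85.2 FPKM in WT. Lpl made up most of it, at 52.0 to 66.4 FPKM in cKO and 55.6 to 79.1 FPKM in WT. All of the 10 except Lpl, Fabp4 and Pck1 stayed under 1 FPKM in every library.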

How the data were processed

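RNA from sorted colon stromal cells of 8 mice was made into full-length SMART-Seq HT cDNA and Nextera XT libraries, per the labels' protocols. The authors deposited 1 table of FPKM values for each library, per the file headers. The submitters' processing notes name the build mm10 and, as tools, Cufflinks 2.2.1, Cuffdiff, TopHat2 2.1.1, SAMtools 0.1.18 and Bowtie2 2.3.5.1. Settings, annotation and strand use: not given in the sources used here. Fragment counts were not used here, so no count model was fitted.

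The 33 genes, the lists of related genes and the cell type markers were chosen with earlier results of these data known. Values were transformed to log2(FPKM + 1), which understates changes of low genes, and 11506 genes, whose mean over the 8 libraries reached 1 FPKM, entered limma 3.58.1 under R 4.3.3 (lmFit, eBayes with a mean-variance trend, 1 factor). P-values were adjusted by Benjamini-Hochberg over all genes tested and called under 0.05. The procedure was tested on simulated data with independent noise for each gene. The planted changes were larger than any difference of the 33 genes, so that test does not cover differences of their size. All 33 genes are named. Values of every library are given for called or non-overlapping genes, the most abundant of each role, the 4 lowest in unadjusted p, Srebf1, Srebf2, Insig1, Insig2, Scd1 and Scd2. Of related lists, the most abundant gene and the 3 lowest in unadjusted p are named. Order counts were made on FPKM after the values were seen.

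Relative depth came from the offset at which ratios of low values (mean FPKM under 0.3) lay on whole-number steps, within 0.002 in log2, for 45.2% to 53.2% of genes compared, against 0.471% or less at a typical offset. Absolute depth came from 21 genes with 1 annotated transcript of at least 4000 bases. Positions and overlaps are from GENCODE M21 (GRCm38, the same build as mm10), and similar transcripts (at least 95% over 200 bases) were found with blastn 2.17.0. Of the listed related genes, Ufd1 had no row under that symbol and was not analysed here.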

Additional observations from a re-analysis of the deposited data

Results flagged for a closer look

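In 5 of the 66 sets of 4 libraries examined (33 genes in 2 groups), 1 library lay far from the other 3 by Dixon's test at the 95% level, where chance alone gives about 5% of sets. cKO replicate 2 was low for Scd2 (29.2 FPKM, the others 45.5 to 47.5). WT replicate 4 was high for Acat2 (8.57 FPKM, the others 7.46 to 7.59), Sqle (16.7 FPKM, the others 9.11 to 10.2) and Sc5d (35.3 FPKM, the others 25.5 to 26.2). WT replicate 2 was high for Scd1 (19.9 FPKM, the others 17.2 to 17.6). Many of these genes varied together across libraries, so the sets are not independent, and the share over all genes was not counted.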

How the results depend on the processing

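In all 20 alternatives no member was called in limma, the replicate block included (0 of 33, smallest adjusted p = 0.898). The smallest adjusted p over the 33 ran from 0.754 with the epithelium covariate to 1 with no filter on low values and without WT replicate 2. At an unadjusted p under 0.05 the count was 7 without cKO replicate 2 (Mvd, Idi1, Fdps, Fdft1, Sqle, Cyp51 and Msmo1), all higher in cKO. Of all 11506 genes, 278 were higher and 361 lower in that fit. Without WT replicate 4 it was also 7 (Idi1, Fdft1, Nsdhl, Sc5d, Srebf1, Srebf2 and Fads1), all higher in cKO, against 358 higher and 380 lower of all genes. Under every other alternative it was 0. Both libraries were singled out after the values were seen. Leaving out the lowest cKO library or the highest WT library of a gene raises its difference by construction, so these counts carry no test. The median difference was 0.12, ran from 0.077 to 0.20 with 1 library left out, and from 0.10 to 0.15 otherwise. With rescaling to a fixed sum, which moved the median of all genes to 0.025, 31 of 33 differences were positive, and among all genes with an unadjusted p under 0.05 the split was 457 up and 172 down in cKO, against 273 and 349 in the reported test. Signs held for 26 of the 33. Differences that changed sign were, with the epithelium covariate, -0.093 for Pmvk, -0.030 for Scap, 0.083 for Acaca and 0.067 for Scd1. With array weights they were -0.011 for Scap, 0.023 for Acaca and 0.0043 for Scd1, and with rescaling 0.0028 for Tm7sf2, 0.0094 for Acaca and 0.029 for Scd1. With 1 library left out the ranges were -0.073 to 0.15 for Pmvk, -0.12 to 0.045 for Tm7sf2, -0.060 to 0.035 for Scap, -0.12 to 0.057 for Acaca, -0.032 to 0.20 for Fasn, -0.084 to 0.058 for Scd1 and -0.010 to 0.24 for Scd2. The cause was not tested. The counts of 15 enzymes with cKO replicate 2 lowest and 17 with WT replicate 4 highest were the same with quantile normalization, median-of-ratios scaling and rescaling, a check added after the data were seen. With a minimum mean FPKM of 5, 25 of the 33 genes were tested. By the upper estimates from the longest transcript, fragments were fewest for Pmvk, Mvd and Tm7sf2, at 97, 105 and 117 in their lowest library. Replicate numbers are shared by the groups, but deviations of same-numbered libraries correlated at 0.0182 to 0.0912, so pairing was not assumed. With the replicate block the median was 0.12 and 28 of 33 differences were positive.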
